A study of Rattus norvegicus with 10 samples.

Results

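Transcripts of nerve fibres and their sheaths were followed in rat lacrimal glands after section of a nerve that serves them. The members were 7 genes of axons, myelin and Schwann cells: Mbp, Pmp22, S100b, Ngfr, Gap43, Nefl and Nefm. They were chosen by name, with every probe set that the array's annotation assigns to them and dim probe sets included. They are 7 of the 4736 genes that the array names, and this gave 11 probe sets of the 8740 on the array that are not controls. Of the 7 genes, 4 were read by 2 probe sets each.

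Total RNA from 10 lacrimal glands, the source of most of the aqueous layer of tears, was measured on 1 rat array per gland. Denervated glands (n = 5) were taken 7 days after the greater superficial petrosal nerve, which carries their parasympathetic supply, had been cut. The control glands (n = 5) were 3 contralateral glands taken 7 days after the same section, 1 gland taken 7 days after a sham operation, and 1 gland that had not been operated on. The titles call the 3 control glands contralateral, whereas their descriptions place them on the operated side, and the titles were followed. The sources used here do not give strain, age or sex, nor whether glands came from separate animals. The p-values therefore cover only the spread among these 10 samples, and that spread may be technical.

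A peripheral nerve is made of axons, whose calibre is set by neurofilaments, and of Schwann cells, which wrap larger axons in myelin and enclose small autonomic axons without it. When an axon is cut, the stretch beyond the cut degenerates. Schwann cells there are known to lower their myelin genes and raise genes of repair, Ngfr among them, while regrowing axons make Gap43. How much of that stretch, if any, lay inside the glands was not measured. Neurofilament, Gap43 and similar messenger RNAs of a nerve cell lie mainly in its cell body, which for these nerves is in a ganglion outside the gland, whereas Schwann cell messenger RNA is made within the gland.

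Values are the authors' linear intensities. Those under 156.2, the 20th percentile of all values, were treated as being at a floor, where they have no order. Probe sets whose mean log2 intensity passed the 30th percentile were tested, 6118 in all. Of the members, 6 probe sets of 4 genes passed this filter (both of Pmp22, both of Ngfr, Gap43 and 1 of Nefl), while Mbp, S100b, Nefm and the other Nefl probe set did not. Intensities of different probe sets cannot be compared with each other, so every comparison is between glands within a probe set. In a whole gland, fewer cells of a type and less RNA per cell cannot be told apart.

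The glands were not uniform. Contralateral 1, sham and denervated 1 lay together on the first principal component, at -50.0, -54.3 and -51.7 where the other 7 glands were between -5.30 and 38.2. Denervated 5 and denervated 2 were highest on the second, at 70.1 and 31.1. The water channel Aqp5, a marker of lacrimal secretory cells, was above the floor in all 10 glands, as was Pip, a secreted protein of the gland. Other secretory markers were uneven. Scgb2a1 was above the floor in 5 glands only, none of them contralateral 1, sham or denervated 1. Dnase1 at U76635mRNA_at read 438126.5 in contralateral 1, 465066 in sham and 231646 in denervated 1, against 177.5 to 21433 in the other 7. Median intensity per array ran from 554 to 979. For the tested members, log2 differences without some of these glands are given beside those over all glands.

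None of the members passed the test. For denervated against all control glands, limma gave 0 of 6118 probe sets passing an adjusted p of 0.05, a background of 0%, and 592 with p below 0.05 before adjustment, or 9.68%. Of the 6 member probe sets tested, 3 had p below 0.05 before adjustment, 1 higher and 2 lower. Higher calls of this kind made up 5.02% and lower calls 4.66% of all probe sets tested. All 3 belonged to genes whose other probe set had a difference of the opposite sign. Of the 6 tested, 2 had a higher and 4 a lower mean in denervated glands, while 44.6% of all probe sets tested were higher. Over all 11 member probe sets, dim ones included, 3 had a higher and 8 a lower mean.

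**Figure D1:**
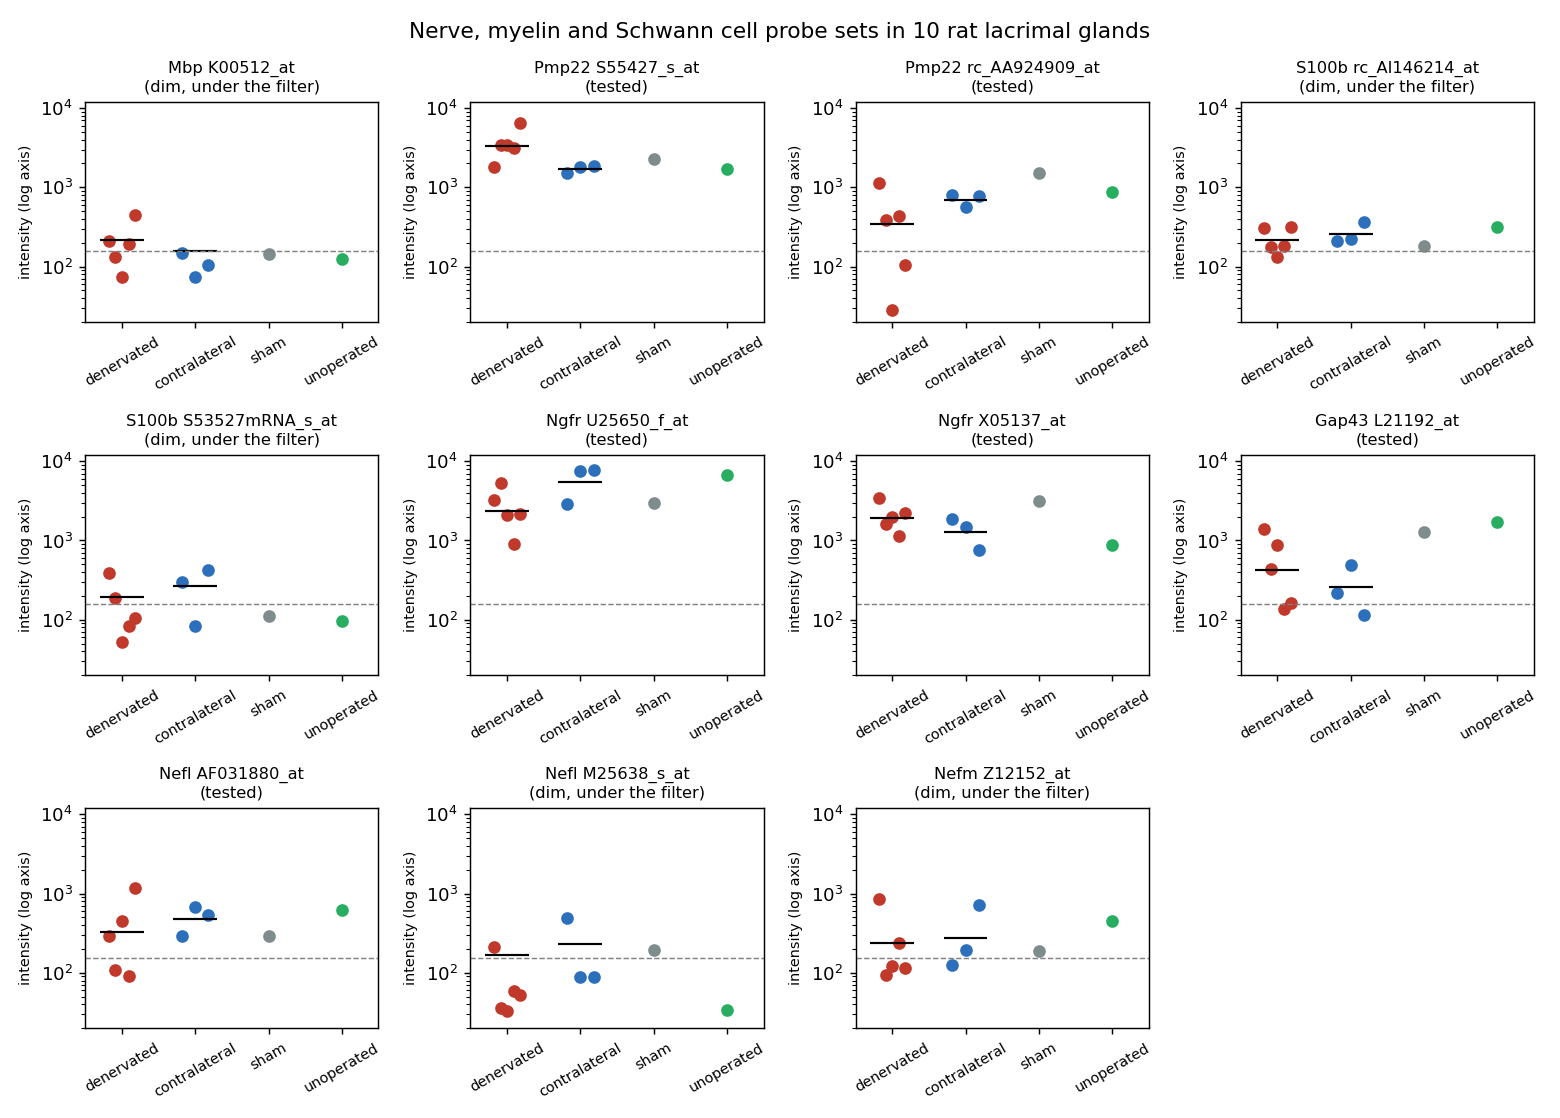
Deposited intensity (vertical axis, logarithmic, no unit) of each of the 11 member probe sets, with 1 point per gland in denervated (n = 5), contralateral (n = 3), sham (n = 1) and unoperated (n = 1) glands. Bars are group means of floored log2 values, the dashed line is the floor at 156.2, and no tested probe set separates all 5 denervated from all 5 control glands.

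Pmp22 encodes a membrane protein of compact myelin that fibroblasts also make. Its brighter probe set, S55427_s_at, read 1811, 3395, 3416, 3135 and 6467 in denervated 1 to 5. In contralateral 1 to 3 it read 1513, 1802 and 1849, in the sham gland 2310 and in the unoperated gland 1705. Denervated 2, 3, 4 and 5 were above every control gland, and denervated 1 was among the controls. The mean log2 intensity was 11.71 ± 0.65 in denervated glands and 10.83 ± 0.22 in control glands (SD, n = 5 each), a log2 difference of 0.88 ± 0.33 (SE; 95% interval 0.19 to 1.58; limma unadjusted p = 0.0165, adjusted p = 0.448). At least 4 of 5 denervated glands lay above all control glands for 4.84% of all probe sets tested.

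The second Pmp22 probe set, rc_AA924909_at, ran the other way. It read 1118, 383.8, 28.3, 437.3 and 104 in denervated 1 to 5, with denervated 3 and 5 at the floor. The contralateral glands 1 to 3 had 794.4, 560 and 775.7, the sham gland 1526 and the unoperated gland 881.9. The same glands, denervated 2 to 5, were below every control gland, and denervated 1 was again within the control range. The log2 difference was -1.33 ± 0.59 (SE; 95% interval -2.59 to -0.07; limma unadjusted p = 0.0397, adjusted p = 0.499), and at least 4 of 5 denervated glands lay below all control glands for 5.43% of all probe sets tested.

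As the 2 probe sets differed in sign, no direction is given for Pmp22 as a gene. Without denervated 1 the log2 differences were 1.11 ± 0.30 and -1.76 ± 0.55 (SE; limma adjusted p = 0.0846 and 0.129). Without contralateral 1, sham and denervated 1 they were 1.13 ± 0.32 and -1.52 ± 0.64 (adjusted p = 0.210 and 0.384). Without denervated 2 and 5 they were 0.56 ± 0.33 and -1.02 ± 0.66 (adjusted p = 0.994 for both).

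**Figure D2:**
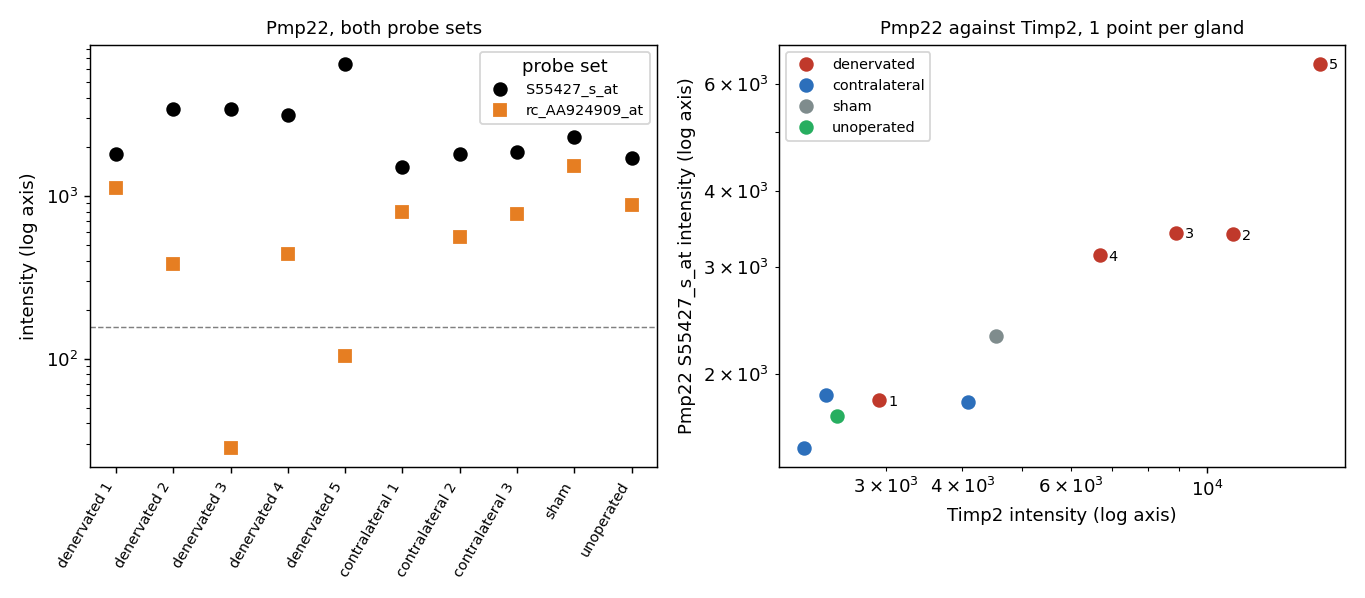
Left, deposited intensity (logarithmic axis) of both Pmp22 probe sets in each gland, with the floor dashed: S55427_s_at is high and rc_AA924909_at low in denervated 2 to 5, compared with the other 6 glands, and levels of the 2 probe sets are not comparable with each other. Right, Pmp22 S55427_s_at against Timp2 (both axes logarithmic), 1 point per gland with denervated glands numbered, where denervated 2 to 5 lie at the upper right and denervated 1 among the controls.

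Likeness to Pmp22 was read at S55427_s_at alone. Over the 10 glands, the 3 genes with the highest Pearson correlation of log2 intensity with it, among 4999 probe sets of other named genes, were Timp2 (r = 0.95), an inhibitor of matrix proteases, Dcn (0.95), the matrix proteoglycan decorin, and Serping1 (0.94), an inhibitor of complement. These are descriptions of 10 arrays that share their differences between glands. Timp2 had 2932, 10989, 8881, 6683 and 15219 in denervated 1 to 5, and between 2214 and 4542 in the 5 control glands. As at this Pmp22 probe set, denervated 2 to 5 were above every control gland and denervated 1 was within the control range.

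Summed markers of several other cell types were, like this Pmp22 probe set, high in some denervated glands. Of 16 fibroblast and matrix genes tested, denervated glands had the higher mean for 14 and the lower for 2, and the median log2 difference was 1.25 beside -0.08 for all probe sets tested. None passed limma's adjusted p of 0.05, and 10 had p below 0.05 before adjustment, all higher, beside 5.02% of all probe sets tested. The median was 1.62 without denervated 1, 1.71 without contralateral 1, sham and denervated 1, and 0.44 without denervated 2 and 5. Their summed intensity was 148518 in denervated 1 and 242314 to 653500 in denervated 2 to 5, against 114032 to 204382 in control glands. Macrophage genes had the higher mean in denervated glands for 9 of 11, 3 of them with p below 0.05 before adjustment and 0 past an adjusted p of 0.05 by limma. Their median was 0.51 over all glands, 0.58 without the 3 glands and 0.30 without denervated 2 and 5, with a summed intensity of 95723 in denervated 1 and 249642 to 369102 in denervated 2 to 5, against 63540 to 149480 in control glands. None of the 35 fibroblast and 24 macrophage probe sets was at the floor in all 10 glands. Myoepithelial and smooth muscle genes had a higher mean in denervated glands for 9 of 9 tested, 5 of them with p below 0.05 before adjustment and 0 past an adjusted p of 0.05 by limma. Their median was 1.06 over all glands, 0.92 without the 3 glands and 0.31 without denervated 2 and 5, with a summed intensity of 18574 to 123208, against 16052 to 37871 in control glands. Adipocyte genes had the higher mean for 5 of 6, with a median of 0.57 and a summed intensity of 16967 to 25617 in denervated glands, against 13553 to 18479 in control glands. Blood cell genes had it for 3 of 4, with a median of 0.56, and their summed intensity was 358909 in denervated 2 and 375229 in denervated 5, 48078 to 64907 in the other denervated glands and 29433 to 178911 in control glands. Without denervated 2 and 5 the medians of these 2 lists were 0.10 and -0.31. Not every list was higher. Endothelial genes had the higher mean in denervated glands for 1 and the lower for 6, with a median of -0.48. For skeletal muscle genes the counts were 6 higher and 8 lower (median -0.02), and for lacrimal secretory genes 7 and 6 (median 0.09). The part of these cell types in the Pmp22 values was not tested.

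Mbp, myelin basic protein, compacts the inner faces of the myelin membrane. Its single probe set read 209.8, 130.9, 73.3, 190.5 and 450.7 in denervated 1 to 5, and 149.7, 74.1 and 103.4 in contralateral 1 to 3. The sham gland had 143.6 and the unoperated gland 125.4. All 5 control glands and 2 denervated glands were thus at the floor, and only denervated 1, 4 and 5 exceeded it. Mbp was left out of the test by the filter. In a fit without the filter the log2 difference was 0.45 ± 0.26 (SE; limma unadjusted p = 0.116, adjusted p = 0.673), where 8.34% of 8740 probe sets had p below 0.05 before adjustment. Without denervated 5 it was 0.18. With all control glands at the floor, neither value bounds the change.

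The calcium-binding protein S100b is a marker of Schwann cells and other glia, and fat cells make it too. Its probe set rc_AI146214_at read 302.6, 175.2, 131.8, 183.9 and 314.8 in denervated 1 to 5. It read 211.6, 225.5 and 368.1 in contralateral 1 to 3, 183.6 in the sham gland and 313.6 in the unoperated gland. The groups overlapped within a narrow range, with denervated 2 and 3 the lowest glands and denervated 3 at the floor. The log2 difference in the fit without the filter was -0.22 ± 0.29 (SE; limma adjusted p = 0.833). Probe set S53527mRNA_s_at was at the floor in 3 denervated and 3 control glands. It was highest in contralateral 3 (423.1) and in denervated 1 (388.1), and its log2 difference was -0.16 ± 0.36 (SE; limma adjusted p = 0.908).

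Ngfr, the low-affinity neurotrophin receptor p75, is made by Schwann cells of injured nerve and by some sensory and sympathetic neurons. Its probe set U25650_f_at, whose suffix in the maker's naming marks probes that can match a family of related sequences, read 3219, 5338, 2127, 895.2 and 2143 in denervated 1 to 5. It read 2855, 7578 and 7810 in contralateral 1 to 3, 2984 in the sham gland and 6695 in the unoperated gland. Denervated 3, 4 and 5 were below every control gland, while denervated 1 and 2 were within the control range. The mean log2 intensity was 11.19 ± 0.95 in denervated and 12.31 ± 0.73 in control glands (SD, n = 5 each), a log2 difference of -1.12 ± 0.45 (SE; 95% interval -2.09 to -0.15; limma unadjusted p = 0.0266, adjusted p = 0.459). At least 3 of 5 denervated glands lay below all control glands for 13.5% of all probe sets tested.

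The low controls of U25650_f_at were contralateral 1 and sham, which stand apart with denervated 1. Without these 3 glands its log2 difference was -1.77 ± 0.48 (SE; limma adjusted p = 0.176), and with them as a block -1.23 ± 0.44 (adjusted p = 0.413). Leaving out single glands gave -1.42 to -0.77, the smallest without denervated 4. The genes most like it over the 10 glands were Stx5, a syntaxin of the Golgi (r = 0.92), the prostaglandin transporter Slco2a1 (0.90) and the proteasome subunit Psmb3 (0.88).

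The other Ngfr probe set, X05137_at, did not share this pattern. It read 3415, 1620, 1988, 1143 and 2208 in denervated 1 to 5, and 1843, 1487 and 748.6 in contralateral 1 to 3. The sham gland had 3145 and the unoperated gland 884.4. Denervated 1 and sham were the 2 highest glands and the groups overlapped. The log2 difference was 0.46 ± 0.43 (SE; 95% interval -0.47 to 1.38; limma adjusted p = 0.744). It was 0.25 without denervated 1 and 0.76 without the 3 glands that stand apart. As the 2 probe sets differed in sign and only 1 is free of the family suffix, no direction is given for Ngfr.

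Gap43 is a protein of growth cones, made by regrowing neurons and, after injury, by Schwann cells that do not form myelin. It varied widely among glands. It read 1394, 433.9, 889, 137.8 and 163.2 in denervated 1 to 5, and 219.4, 490.8 and 113.3 in contralateral 1 to 3. The sham gland had 1277 and the unoperated gland 1711. Denervated 4 and contralateral 3 were at the floor. Against all control glands the log2 difference was -0.28 ± 0.81 (SE; 95% interval -2.01 to 1.45; limma adjusted p = 0.922), an interval that includes a 2-fold change either way. Its sign turned when the unoperated gland (0.15), the sham gland (0.04), denervated 4 (0.08) or denervated 5 (0.06) was left out. It was -0.71 without denervated 1 and -0.69 without contralateral 1, sham and denervated 1.

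The Gap43 log2 intensity was 8.73 ± 1.42 in denervated glands (SD, n = 5), 10.32 in the sham gland and 10.74 in the unoperated gland. The lowest mean was that of the contralateral glands (SD 0.85, n = 3), with denervated minus contralateral at 0.73 ± 0.79 (SE; limma adjusted p = 0.854), less than the spread of either group. All 3 contralateral glands lay below the unoperated and sham glands, where the log2 difference was -2.53 ± 0.99 (SE; limma unadjusted p = 0.0234, adjusted p = 0.967). Such a gap between 3 and 2 glands was seen for 15.2% of all probe sets tested, and 4.89% had p below 0.05 before adjustment, 1.52% higher and 3.37% lower. Denervated glands differed from the unoperated and sham glands by -1.80 ± 0.90 (SE; limma unadjusted p = 0.0674, adjusted p = 0.616), where 7.89% of all probe sets tested had p below 0.05 before adjustment, 3.38% higher and 4.51% lower. At Gap43, denervated 1 lay between the sham and the unoperated gland. Most like Gap43 were Pgr, the progesterone receptor (r = 0.88), Olr59 (0.87) and Rgs8 (0.86). Pgr and Olr59 were above the floor in 8 glands and Rgs8 in 9.

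Nefl and Nefm encode the light and medium subunits of neurofilaments, and in the rat assembly they are neighbouring genes. Nefl probe set AF031880_at read 289.1, 109.2, 447.6, 90.7 and 1162 in denervated 1 to 5. It read 293.2, 682.7 and 533.8 in contralateral 1 to 3, 290 in the sham gland and 615.7 in the unoperated gland. Denervated 5 was the highest of all 10 glands, and denervated 2 and 4 were the only ones at the floor. Denervated 1, 2 and 4 were below every control gland, denervated 1 only just. At least 3 of 5 denervated glands lay below all control glands for 13.5% of all probe sets tested. The log2 difference at AF031880_at was -0.48 ± 0.62 (SE; 95% interval -1.81 to 0.85; limma adjusted p = 0.822), and without denervated 5 it was -0.93. Without contralateral 1, sham and denervated 1 it was -0.86. Pdzd11 (r = 0.89), Lhx2 (0.88) and Crygd (0.87) were most like this probe set, Crygd encoding a protein of the eye lens. Each was highest in denervated 5, as Nefl was here, and Lhx2 was above the floor in 7 glands only.

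The second Nefl probe set, M25638_s_at, was above the floor in 3 glands only, contralateral 1 (486.5), denervated 1 (215) and sham (192.2), the glands that stand apart. Nefm was above the floor in 6 glands, with 846.2 in denervated 1, 238.6 in denervated 4, 719.1 in contralateral 3, 457.7 in the unoperated gland, 191.5 in contralateral 2 and 186.2 in the sham gland. In the fit without the filter the log2 differences were -0.30 ± 0.30 for this Nefl probe set and -0.25 ± 0.58 for Nefm (SE; limma adjusted p = 0.785 and 0.912). The Nefm value was -0.71 without denervated 1 and -1.20 without the 3 glands that stand apart. With most glands at or near the floor, a difference in these 2 probe sets was not detectable at this signal.

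**Figure D3:**
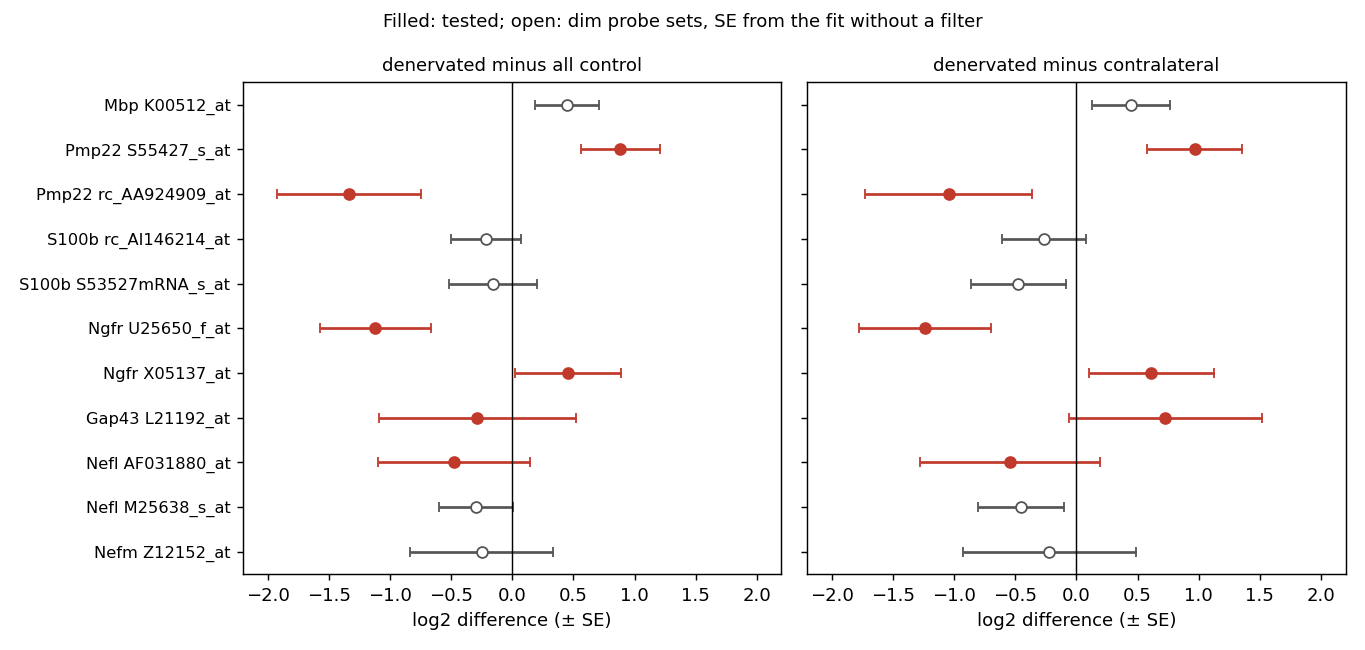
Log2 difference with its standard error (horizontal axis) for each member probe set in denervated minus all control glands (left) and denervated minus contralateral glands (right). Filled points were tested, open points are dim probe sets with errors from a fit without the filter, and the 2 probe sets of Pmp22 and of Ngfr lie on opposite sides of 0 in both comparisons.

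The denervated glands were also set against the 3 contralateral glands alone, a comparison that shares all its glands with the first. Here limma gave 0 of 6118 probe sets passing an adjusted p of 0.05 (0%) and 438 with p below 0.05 before adjustment (7.16%). Of the 6 members tested, 1 was higher and 1 lower by that measure, where the background was 4.15% higher and 3.01% lower. Over these 6 probe sets, 3 had a higher and 3 a lower mean, Gap43 being the one whose sign differed between the comparisons, at 0.73 ± 0.79 here and -0.28 ± 0.81 against all control glands. Pmp22 S55427_s_at differed by 0.97 ± 0.39 and Ngfr U25650_f_at by -1.24 ± 0.54 (SE; limma unadjusted p = 0.0265 and 0.0388, adjusted p = 0.653 and 0.675). Pmp22 rc_AA924909_at differed by -1.04 ± 0.68 (unadjusted p = 0.150), Ngfr X05137_at by 0.61 ± 0.51 and Nefl AF031880_at by -0.54 ± 0.74 (SE; limma adjusted p = 0.780, 0.824 and 0.899).

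Other genes of the nerve were counted in lists of myelin, of Schwann cell and repair genes, of neurotrophic factors and their receptors, of axons, and of autonomic transmitters. These lists hold some of the members, and some genes stand in 2 of them. They covered 83 genes by 149 probe sets, of which 85 passed the filter and 40 were above the floor in all 10 glands. For genes with several probe sets the brightest one tested was counted. In each of the 5 lists limma gave 0 genes past an adjusted p of 0.05 for denervated against all control glands. The counts with p below 0.05 before adjustment follow. Among all probe sets tested such calls made up 9.68%, 5.02% higher and 4.66% lower.

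Of 12 myelin genes tested, 6 were higher and 6 lower, with a median log2 difference of 0.22, and limma's p before adjustment was below 0.05 for 2, Mobp and Pmp22 at S55427_s_at, the probe set counted, whose partner ran the other way. Mobp, a protein known from myelin of the central nervous system, differed by 1.28 ± 0.58 at 1 probe set (SE; adjusted p = 0.507). There the sham gland read 800.5 and the denervated glands 355.3 to 837.7. Its 3 other probe sets, under the filter, had a lower mean in denervated than in control glands (log2 7.40 and 7.65, 7.36 and 7.83, 7.70 and 8.30). Ugt8, which makes the myelin lipid galactocerebroside, differed by -1.17 ± 0.49 at 1 probe set (adjusted p = 0.463) and by -0.16 ± 0.30 at its brighter one. Gjb1, the connexin of Schwann cell myelin and also of glandular epithelium, differed by -0.63 ± 0.33 and Cnp, an enzyme of myelinating cells, by 0.54 ± 0.34 (SE). Mag, a receptor-like protein on the inner myelin wrap, had differences of -0.39 and 0.55 at its 2 tested probe sets. Its other probe set, under the filter and above the floor in 4 glands, had a mean log2 intensity of 7.32 in denervated and 8.37 in control glands.

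Of 17 Schwann cell and repair genes, 10 were higher and 7 lower, with a median of 0.27, and limma's p before adjustment was below 0.05 for Ngfr alone, at U25650_f_at, the probe set counted, which was lower while X05137_at was higher. Erbb3, the neuregulin receptor of Schwann cells and of many epithelia, differed by 0.67 ± 0.41 (SE; adjusted p = 0.614) and, at its other probe set, by 0.23 ± 0.54. Its partner Nrg1 differed by -0.91 ± 0.50, -0.59 ± 0.63 and 0.27 ± 0.71 at its 3 tested probe sets. Jun, a transcription factor that drives the repair state of Schwann cells, differed by 1.12 ± 0.78 at 1 probe set and by -0.50 to 0.62 at its others. Sox10, a transcription factor of Schwann cells that myoepithelial cells also carry, differed by 0.54 ± 0.68. Sox10 was 179.7 in denervated 1 and 745 to 1799 in denervated 2 to 5, against 131 to 949.4 in control glands.

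Of 12 neurotrophic factors and receptors, 3 were higher and 9 lower, with a median of -0.41, and again only Ngfr, at U25650_f_at, had a limma p below 0.05 before adjustment. The median was 0.09 without contralateral 1, sham and denervated 1. Sort1, a co-receptor of Ngfr for immature neurotrophins and a sorting receptor in most cells, differed by -1.37 ± 0.78 (SE; adjusted p = 0.592). It was 185.2 in denervated 5 and 1506 in denervated 2, while the other denervated glands had 5682 to 7877 and the control glands 4597 to 7555. Bdnf, a neurotrophin, differed by 0.83 ± 0.80 at 1 probe set and by -0.40 and -0.10 at its others that passed the filter.

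**Figure D4:**
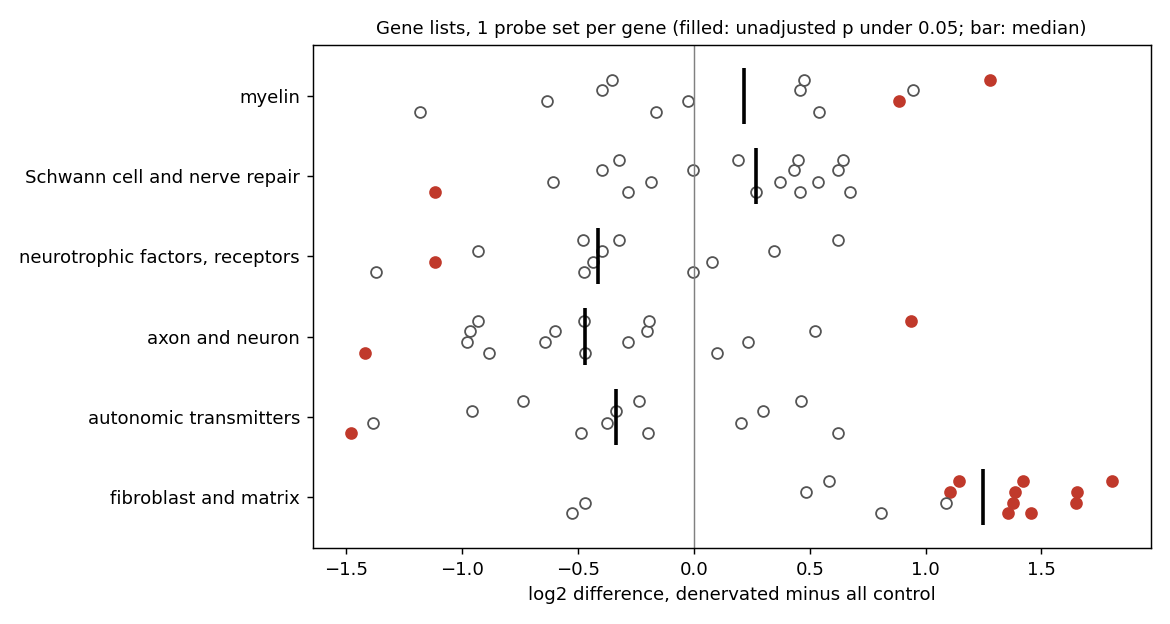
Log2 difference in denervated minus all control glands (horizontal axis), with 1 point per tested gene, in 5 lists of nerve genes and in the fibroblast and matrix list. Filled points had p below 0.05 before adjustment and bars are list medians, which lie between -0.47 and 0.27 for the nerve lists and at 1.25 for fibroblast genes.

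Of 16 axon and neuron genes, 4 were higher and 12 lower, with a median of -0.47, and limma's p before adjustment was below 0.05 for 1 higher gene, Rtn1, and 1 lower, Nsg1. Rtn1, a reticulon of the endoplasmic reticulum that is abundant in neurons, differed by 0.94 ± 0.30 and, at its other probe set, by 0.74 ± 0.64 (SE; adjusted p = 0.435 and 0.723). It read 1802, 3093, 2285, 3698 and 2655 in denervated 1 to 5 and between 1100 and 1691 in the 5 control glands. All denervated glands, denervated 1 included, lay above all control glands at that probe set, and the groups did not overlap for 1.67% of all probe sets tested. Nsg1, a membrane protein of neuronal endosomes, differed by -1.42 ± 0.64 (adjusted p = 0.505) and the synuclein Sncb by -0.98 ± 0.64 (adjusted p = 0.639). Map1b, a microtubule protein of growing axons, was at the floor in all glands at 2 of 3 probe sets, and only 6 of 41 axon probe sets were above the floor in every gland.

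Of 13 transmitter genes, 4 were higher and 9 lower, with a median of -0.33, and limma's p before adjustment was below 0.05 for 1 lower gene. This was Slc18a2, the vesicular transporter of monoamines in sympathetic terminals and mast cells, which differed by -1.48 ± 0.51 (SE; adjusted p = 0.437). It read 589.5, 60.7, 352.8, 98.1 and 310 in denervated 1 to 5 and from 523.1 to 1079 in control glands. Denervated 2 to 5 were below all controls, with denervated 2 and 4 at the floor. At least 4 of 5 denervated glands lay below all control glands for 5.43% of all probe sets tested. The other Slc18a2 probe set was under the filter, with a mean log2 intensity of 8.05 in denervated and 8.25 in control glands. Slc18a3 and Chat, the vesicular transporter and the enzyme of acetylcholine, which is the parasympathetic transmitter, differed by -0.33 ± 0.39 and 0.20 ± 0.65 (SE; limma adjusted p = 0.798 and 0.935). Th and Dbh, enzymes of noradrenaline synthesis, differed by -0.38 ± 0.59 and -0.49 ± 0.63, and Ddc, another enzyme of that pathway, by -1.39 ± 0.73 (adjusted p = 0.559). The neuropeptide genes Tac1 and Adcyap1 differed by 0.62 ± 0.63 and 0.46 ± 0.67 (adjusted p = 0.762 and 0.843). The groups overlapped for all 7 of these genes.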

How the data were processed

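The deposited table holds linear probe set intensities, made by the authors from 1 array per gland. Their trimmed means (2% at each end) ran from 2505 to 2507, so the arrays had been scaled to a common level before deposit. The sources used here name no software version and hold no detection calls. This scaling was kept, values under the 20th percentile (156.2) were set to it, and log2 was taken. After removal of 59 control probe sets, 6118 of 8740 with a mean log2 above the 30th percentile were tested.

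Symbols came from the platform annotation, updated by gene ID in a RefSeq table of the GRCr8 assembly (6985 of 7006 single-symbol probe sets found). Groups came from the sample titles. Tests used limma 3.58.1 in R 4.3.3 with a variance trend, two-sided, adjusted by Benjamini-Hochberg over all probe sets tested, in a fit of 2 classes (denervated, all control) and one of 3 (denervated, contralateral, unoperated with sham). No p was adjusted over the members alone. The members, lists and tests were chosen with earlier results of these data known. All member probe sets are named. From each nerve list the rule names the 2 smallest p in each direction, and the other list genes were chosen for their role after their values were seen. Likeness was computed for members' brightest probe sets above the floor in at least 8 glands. Precision is limited by the number of arrays, and log2 differences had a median standard error of 0.50. Alternatives were other scalings, floors and filters, no trend, array weights, 1 probe set per gene, a replicate block and leaving out glands. Leaving out contralateral 1, sham and denervated 1, or using them as a block, was not planned and was added after the data were seen. The same holds for leaving out denervated 2 and 5. Figures were drawn with matplotlib 3.10.9.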

Additional observations from a re-analysis of the deposited data

Results flagged for a closer look

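In groups of 5 glands, 1 gland lay far from the other 4 for 4 member probe sets, all of them dim. Denervated 1 was far above the other denervated glands for Nefm (846.2), for S100b at S53527mRNA_s_at (388.1) and for Nefl at M25638_s_at (215). Contralateral 1 was far above the other control glands for the same Nefl probe set (486.5). Denervated 5 was far above the other denervated glands for Mbp (450.7). In each of these groups at least 1 other gland was at the floor, so the gaps rest on single readings. For Nefl at M25638_s_at the 4 other denervated glands were all at the floor, where any reading above it is marked. The usual rate of about 1 in 20 groups marked by chance need not hold where values are tied at a floor.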

How the results depend on the processing

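No member passed an adjusted p of 0.05 under any alternative run, the lowest value being 0.0846 for Pmp22 S55427_s_at without denervated 1. The signs of both Pmp22 probe sets, both Ngfr probe sets and Nefl AF031880_at were kept in every alternative, for both comparisons. Values of dim probe sets turned sign under some alternatives, with ranges against all control glands of -1.0 to 0.02 for Nefl M25638_s_at, -1.20 to 0.16 for Nefm and -0.42 to 0.08 for S100b S53527mRNA_s_at. Leaving out single glands moved Gap43 against all control glands between -0.72 and 0.15. The sign of Gap43 against all control glands turned without the unoperated gland (0.15), sham (0.04), denervated 4 (0.08), denervated 5 (0.06), and denervated 2 and 5 together (0.16), the last chosen after seeing the data. The number of probe sets passing, 0 in the main test of all 4 comparisons, was 0 to 70 for denervated against all control glands when single glands were left out (70 without denervated 1, none of them a member), 0 to 5 against unoperated and sham glands, and 0 to 1 for contralateral against unoperated and sham glands. With no filter these last 2 comparisons gave 13 and 7. Against contralateral glands it was 1 without a variance trend and 1 with array weights.

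Same-numbered denervated and contralateral glands had correlated deviations of 0.49, 0.04 and 0.16, and denervated 3 correlated best with contralateral 2, so the numbers were not taken as pairs. With the number as a replicate block, over 6 glands, 0 probe sets passed and 498 had p below 0.05 before adjustment. The block gave 0.69 for Pmp22 S55427_s_at, -0.79 for rc_AA924909_at and -0.74 for Ngfr U25650_f_at.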
